A study of Mus musculus with 4 samples.

Results

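A set of 10 genes was followed that encode transcription factors of the dendritic cell lineage, namely Irf4, Irf8, Batf3, Id2, Zeb2, Tcf4, Spi1, Bcl11a, Nfil3 and Zbtb46. They were taken by symbol from a table of 26026 mouse genes, and 10 of 10 were found in it. The table holds polyadenylated RNA of bone marrow-derived cells (BMDC) cultured with Flt3 ligand at 100 ng/mL, in wild-type and Nfkb1-/- cells, both labelled C57/B16, harvested on day 3 and on day 5. Each pairing of genotype with day is a single library, 4 in all, so the differences below have no replicate check and none was tested. The Nfkb1-/- allele is not described further in the labels, and no sort or gate is named, so each library is a mixed culture. Day 5 cells had been given fresh medium on day 3. The study's question was how RelA and p50, the NF-kB subunit made from Nfkb1, act together during this differentiation.

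Dendritic cells arise in marrow from progenitors that carry the Flt3 receptor, and a small set of factors steers them to the plasmacytoid (pDC) or the conventional (cDC) fate. PU.1, the product of Spi1, opens myeloid genes at many steps. IRF8, BATF3, ID2 and NFIL3 are known from the making of cross-presenting cDC1, and IRF4 and ZEB2 from cDC2. TCF4 (also called E2-2) and BCL11A are known from pDC, and ID2 restrains E proteins such as TCF4. ZBTB46 marks the conventional branch. NFIL3 is known to repress Zeb2, and ZEB2 to repress Id2, in early steps of the cDC1 path.

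The promoters are shown first because the cultures differ in an NF-kB gene. RefSeq windows (GRCm38.p6) running from 250 bases before to 50 bases after a gene's start were at hand for 8 of the 10 factors, with 12 windows in all. Printed are 4: Irf8, Batf3 and Zbtb46, whose RNA differed most in the negative direction between genotypes on day 5, and Bcl11a, the one factor with a kB consensus match. Sequences run 5′ to 3′ on the gene's strand, and capitals mark matches on either strand to the kB consensus, AP-1 (TGANTCA), the PU.1 core (GAGGAA) or the ZEB E-box (CAGGTG).
Irf8 (chr8:120736108-120736407, plus strand): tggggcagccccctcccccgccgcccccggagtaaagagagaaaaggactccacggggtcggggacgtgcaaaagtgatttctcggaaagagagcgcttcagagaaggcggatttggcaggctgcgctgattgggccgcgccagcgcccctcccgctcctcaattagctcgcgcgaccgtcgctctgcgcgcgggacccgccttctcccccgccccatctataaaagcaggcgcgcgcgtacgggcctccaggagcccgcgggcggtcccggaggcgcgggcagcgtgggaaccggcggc
Batf3 (chr1:191098164-191098463, plus strand): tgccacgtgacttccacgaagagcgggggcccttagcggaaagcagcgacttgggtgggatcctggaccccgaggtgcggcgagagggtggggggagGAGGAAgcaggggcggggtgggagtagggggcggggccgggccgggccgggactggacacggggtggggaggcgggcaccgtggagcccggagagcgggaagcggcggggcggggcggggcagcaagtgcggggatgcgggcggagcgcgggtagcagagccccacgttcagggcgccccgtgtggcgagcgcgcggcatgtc
Zbtb46 (chr2:181424339-181424638, minus strand): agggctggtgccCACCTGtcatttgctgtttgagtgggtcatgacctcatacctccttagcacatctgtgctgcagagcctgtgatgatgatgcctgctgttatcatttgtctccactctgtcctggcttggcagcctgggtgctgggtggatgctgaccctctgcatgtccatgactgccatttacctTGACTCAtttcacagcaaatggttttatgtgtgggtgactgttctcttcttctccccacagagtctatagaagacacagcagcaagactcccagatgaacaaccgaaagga
Bcl11a (chr11:24080445-24080744, plus strand): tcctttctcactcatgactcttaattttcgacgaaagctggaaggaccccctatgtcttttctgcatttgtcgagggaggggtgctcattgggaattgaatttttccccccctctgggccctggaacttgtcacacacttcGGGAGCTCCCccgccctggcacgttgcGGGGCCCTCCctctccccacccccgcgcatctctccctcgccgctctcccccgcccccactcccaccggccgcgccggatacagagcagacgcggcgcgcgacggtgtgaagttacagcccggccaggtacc

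Bcl11a held 2 kB matches, from position -109 to -100 and from -82 to -73 relative to its start, and 5.80% of all 32851 windows held at least 1. The Irf8 window shown held none of the 4 marked motifs, and the other Irf8 window held 1 ZEB E-box. Batf3 held a PU.1 core from -153 to -148, a motif found in 28.3% of all windows. It was in 6 of the 12 windows, those of Batf3, Irf4 and Zeb2, and some of the Zeb2 windows overlap. Zbtb46 held an AP-1 match from -61 to -55 (7.81% of all windows) and a ZEB E-box from -238 to -233 (20.2%). The Zbtb46 window held 1 CpG, against a median of 7 over all windows. The letters just before its start are a pyrimidine-rich run closing in AG, as at intron ends. Whether this window holds the promoter used in these cells was therefore not settled. AP-1 was otherwise found in 1 of the 4 Zeb2 windows. The interferon-stimulated response element (2 GAAA runs with 2 bases between, 3.44% of all windows), the composite ETS-IRF element (GGAA, 2 bases, then GAAA, 2.72%), which shares its last letters with it, the composite AP-1-IRF element (TGANTCA, 4 bases, then GAAA, 0.119%), which contains AP-1, and the PAR bZIP element bound by NFIL3 (TTANNTAA, 6.00%) had 0 matches in the 12 windows. The general E-box (CANNTG), which includes the ZEB E-box, was in 7 of the 12 windows and in 72.3% of all. A match describes letters only, and its absence says nothing of sites outside the window.

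Levels are given as RPKM, reads per kilobase of transcript scaled to the library total. Whole reads and library totals (15255070 to 16215214 reads) were recovered from the steps between values, and each 95% interval is an exact interval of those reads that covers counting error only. Differences were taken on the log2 scale after adding 1 RPKM, a scale that compresses low genes, and a gene was called higher or lower when the difference reached 1 in size. All 10 factors passed the filter of a mean of at least 1 RPKM, among 11786 genes that did. Nfkb1 itself stood at 74.8 in wild type and 56.0 RPKM in knockout cells on day 3, and at 114 and 64.7 RPKM on day 5, so it was lower in the libraries labelled knockout but not absent. Reads summed over all its exons cannot tell disrupted from intact transcripts. The genes that mark the labelled cells were present in every library, with Flt3 between 29.9 and 84.8 RPKM, Itgax between 11.1 and 55.3 RPKM, H2-Aa between 333 and 1187 RPKM, Siglech between 11.6 and 43.5 RPKM and Clec9a between 3.37 and 24.8 RPKM. Neutrophil genes were present beside them, as given with the marker lists at the end.

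**Figure D1:**
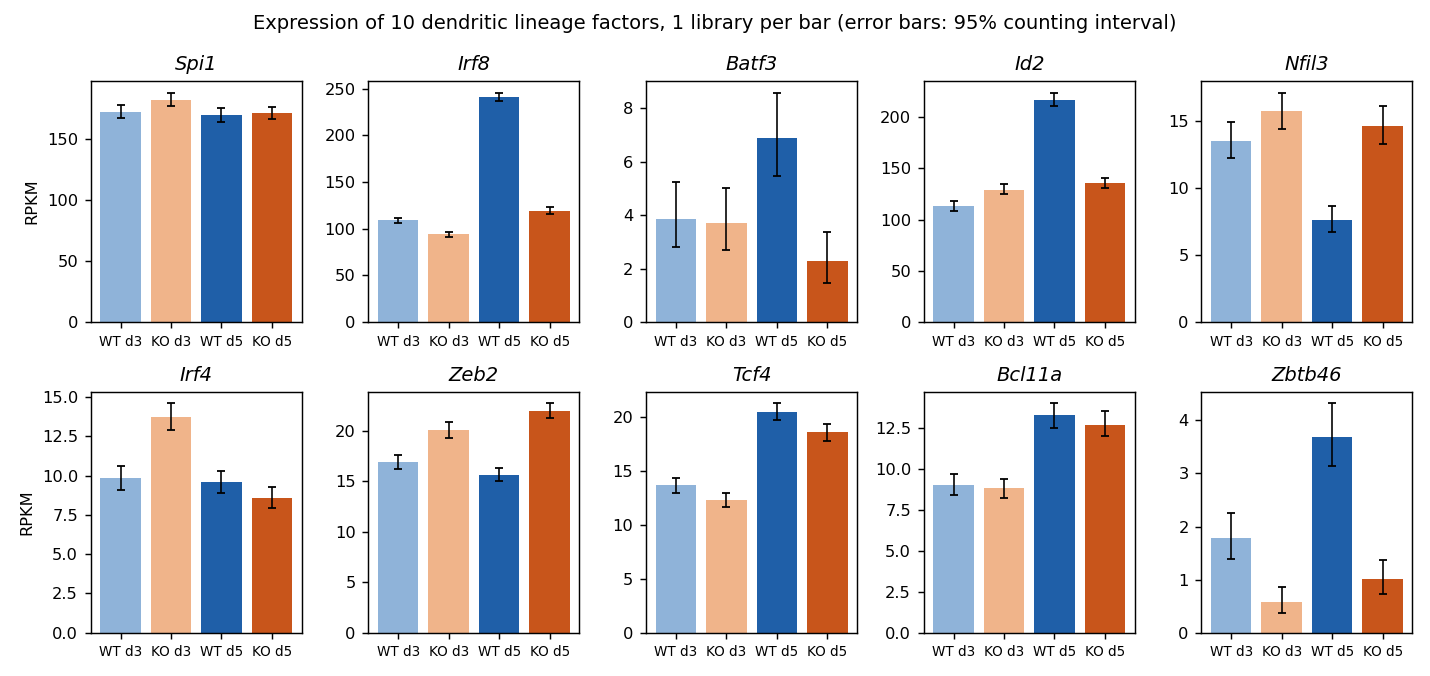
Level of each of the 10 factors in RPKM (vertical axes, from 0) in the 4 libraries, wild type (WT) and Nfkb1 knockout (KO) on day 3 (d3) and day 5 (d5). Each bar is 1 library and error bars are 95% counting intervals. Irf8, Id2, Batf3, Zbtb46, Tcf4 and Bcl11a stood highest in wild type on day 5, though the day 5 intervals of Bcl11a overlapped. Spi1 lay between 169.7 and 182 RPKM in all 4.

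Spi1 was the most even of the factors. It stood at 172 in wild type and 182 RPKM in knockout cells on day 3, and at 169.7 and 171 RPKM on day 5, so that the highest library was 1.08 times the lowest. Knockout over wild type gave a ratio of 1.06 (95% interval 1.02 to 1.11) on day 3 and 1.01 (0.963 to 1.05) on day 5. The log2 difference on day 3, 0.08, turned to -0.08 when the libraries were rescaled by their median ratio, so no direction is given for it.

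Irf8, the factor needed for cDC1 and kept high in pDC, was called in more than one comparison. It stood at 109 in wild type and 94.1 RPKM in knockout cells on day 3, and at 241 and 119 RPKM on day 5. Wild type on day 5 thus lay apart from the other 3 libraries, which ran from 94.1 to 119 RPKM. In wild type Irf8 rose from day 3 to day 5 by 1.14 on the log2 scale, a ratio of 2.22 (2.14 to 2.30). In the knockout the ratio of the days was 1.27 (1.22 to 1.32) and the difference of 0.34 stayed under the rule. The knockout was lower on day 5 with a log2 difference of -1.01, just past the rule, a ratio of 0.495 (0.479 to 0.511), against -0.21 and 0.866 (0.830 to 0.902) on day 3. The call on day 5 was lost by a narrow margin with a pseudocount of 5 RPKM (-0.99) and with a rescaling that equalised the RPKM sums (-0.98), and the call between the days in wild type with rescaling by the median ratio (0.97). In mixed cultures such as these, fewer cells that carry a transcript and less of it per cell cannot be told apart.

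Batf3, the AP-1 family partner of IRF8 in cDC1, was read from few fragments. Its reads were 42 in wild type and 43 in knockout cells on day 3, and 79 and 25 on day 5, or 3.87, 3.72, 6.88 and 2.28 RPKM. Knockout over wild type gave a ratio of 0.963 on day 3, with an interval that included 1 (0.615 to 1.51), and on day 5 the knockout was lower by the rule, with a difference of -1.27 and a ratio of 0.331 (0.202 to 0.525). Wild type stood 1.78 times higher on day 5 than on day 3 (1.21 to 2.65), while in the knockout the ratio of the days was 0.612 (0.358 to 1.03). The genotype difference therefore moved by -1.22 between the days, the one such shift among the factors that passed the rule. The ratio of the 2 genotype ratios was 0.344 (0.176 to 0.667). With a pseudocount of 5 RPKM both calls were lost, at -0.71 for day 5 and -0.68 for the change. Intervals of this ratio of ratios excluded 1 for 6 of the 10 factors. The others, under the rule but on more reads, were Id2 (0.505 to 0.587), Irf8 (0.542 to 0.603), Irf4 (0.554 to 0.741), Zeb2 (1.10 to 1.28) and Nfil3 (1.35 to 2.04).

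Zbtb46, the zinc finger factor of the conventional branch, was the lowest of the 10 in every library. It stood at 1.78 RPKM (70 reads) in wild type and 0.575 RPKM (24 reads) in the knockout on day 3, and at 3.69 RPKM (153 reads) and 1.01 RPKM (40 reads) on day 5. Both knockout libraries lay below both wild-type libraries. Knockout over wild type gave a ratio of 0.323 (0.194 to 0.519) on day 3 and 0.274 (0.188 to 0.390) on day 5, the lowest ratio of any of the 10 on either day. On the log2 scale the difference was -1.22 on day 5, past the rule, and -0.82 on day 3, under it. At such levels the scale decides the call, since the day 3 difference became -1.48 with a pseudocount of 0.1 RPKM and the day 5 difference -0.53 with 5 RPKM. Between the days Zbtb46 stood 2.07 times higher on day 5 in wild type (1.55 to 2.79) and 1.76 times higher in the knockout (1.03 to 3.04), a log2 difference in wild type of 0.75 that became 1.01 with 0.1 RPKM. The ratio of the 2 genotype ratios was 0.848, and its interval of 0.459 to 1.59 included 1.

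Id2, the inhibitor of E proteins, stood at 113 in wild type and 129 RPKM in knockout cells on day 3, and at 217 and 136 RPKM on day 5. As with Irf8, the wild-type library of day 5 was above the other 3. The knockout was 1.14 times wild type on day 3 (1.08 to 1.21) and 0.623 times wild type on day 5 (0.594 to 0.654), log2 differences of 0.19 and -0.68 that did not pass the rule. The day 3 difference was 0.02 after rescaling by the median ratio, so no direction is given for it. The ratio of the days was 1.92 (1.83 to 2.02) in wild type, just under the rule at 0.94, and 1.05 (0.992 to 1.10) in the knockout.

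Nfil3 went the other way on day 5. This basic leucine zipper repressor stood at 13.5 in wild type and 15.7 RPKM in knockout cells on day 3, and at 7.60 and 14.6 RPKM on day 5. Here wild type on day 5 was the one low library, and the other 3 ran from 13.5 to 15.7 RPKM. The knockout to wild type ratio was 1.16 (1.02 to 1.33) on day 3 and 1.93 (1.64 to 2.26) on day 5. The log2 differences were 0.20 (0.04 after rescaling by the median ratio) and 0.86. Between the days the ratio was 0.562 (0.478 to 0.660) in wild type and 0.933 (0.819 to 1.06) in the knockout. None of these differences passed the rule.

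Zeb2, a repressor with a part in both pDC and cDC2, stood at 16.9 in wild type and 20.1 RPKM in knockout cells on day 3, and at 15.6 and 21.9 RPKM on day 5. Both knockout libraries were above both wild-type libraries, with ratios of 1.19 (1.12 to 1.25) and 1.41 (1.33 to 1.49) and log2 differences of 0.23 (0.07 after rescaling by the median ratio) and 0.47, under the rule. The transcript Zeb2os overlaps exons of Zeb2 on the opposite strand, and the use of strand in counting is not given in the sources used here, so the reads of the pair cannot be told apart where they overlap. Zeb2os stood at 16.8 in wild type and 22.4 RPKM in knockout cells on day 3, and at 17.7 and 28.1 RPKM on day 5.

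Irf4, the relative of Irf8 known from cDC2, was highest in the knockout on day 3. It stood at 9.82 in wild type and 13.7 RPKM in knockout cells on day 3, and at 9.57 and 8.57 RPKM on day 5. The knockout to wild type ratio was 1.40 (1.27 to 1.54) on day 3 and 0.895 (0.804 to 0.997) on day 5, log2 differences of 0.44 and -0.14. In wild type the days differed by less than counting error (ratio 0.974, 0.878 to 1.08), and in the knockout the ratio of the days was 0.624 (0.565 to 0.690), a difference of -0.62. Again no difference reached the rule.

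Tcf4 and Bcl11a, the pair tied to pDC, had similar profiles over the 4 libraries at different levels. Tcf4 stood at 13.7 in wild type and 12.3 RPKM in knockout cells on day 3, and at 20.5 and 18.6 RPKM on day 5. Bcl11a stood at 9.03 and 8.80 RPKM on day 3, and at 13.3 and 12.7 RPKM on day 5. The ratio of the days was 1.49 in wild type and 1.51 in the knockout for Tcf4 (1.40 to 1.59 and 1.41 to 1.62), and 1.47 and 1.45 for Bcl11a (1.35 to 1.60 and 1.33 to 1.58). Knockout to wild type ratios were 0.897 (0.833 to 0.965) and 0.906 (0.854 to 0.962) for Tcf4 on day 3 and day 5, and the intervals for Bcl11a included 1 on both days (0.974, 0.885 to 1.07, and 0.961, 0.888 to 1.04). Bcl11a, with the kB matches shown above, was among the factors whose RNA differed least between genotypes, and a link between the 2 was not tested. Exons of Bcl11a overlap 4930538E20Rik on the opposite strand, which held 58 to 98 reads against 842 to 1306 for Bcl11a.

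**Figure D2:**
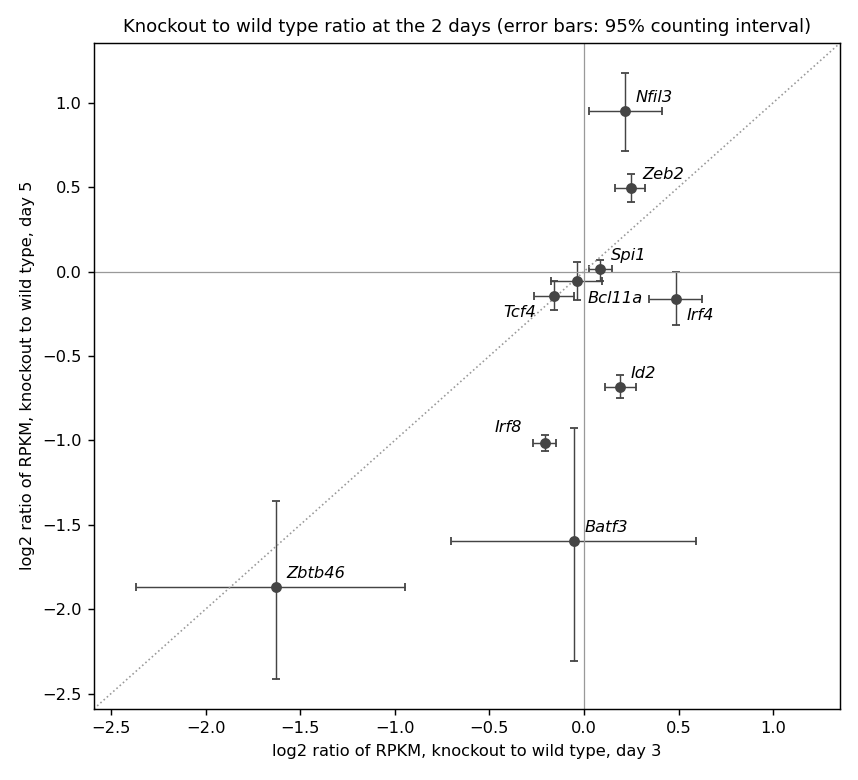
Log2 ratio of RPKM, knockout to wild type, on day 3 (horizontal) and day 5 (vertical) for the 10 factors, with no pseudocount. Error bars are 95% counting intervals and the dotted line marks equal ratios. Zbtb46 lies low on both days, and Irf8, Id2 and Batf3 lie low on day 5. Nfil3 and Zeb2 lie above 0 on both days as deposited, but near 0 on day 3 after rescaling by the median ratio.

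Counted by the rule, 0 of the 10 factors were higher and 0 lower in the knockout on day 3, where 0.976% of all genes were called higher and 0.882% lower, 1.86% in either direction. That split of all genes, 115 higher and 104 lower, became 70 and 156 after rescaling by the median ratio and 81 and 125 after rescaling to the same sum. On day 5, 3 factors were lower (Batf3, Zbtb46 and Irf8) and 0 higher, where 3.22% of all genes were called lower and 1.16% higher, 4.39% in either direction. The median of the 10 was 0.03 on day 3, against 0.13 over all genes, and -0.14 on day 5, against 0.01. Rescaling by the median ratio moved the median of all genes on day 3 from 0.13 to -0.02, and the medians of the 10 to -0.13 and -0.16, so the day 3 value has no stable sign. From day 3 to day 5, 1 factor was called higher in wild type (Irf8) and 0 lower, where 1.80% and 2.05% of all genes were called, 3.85% in either direction, with a median of 0.53 against 0.16 over all genes. Here the split of all genes, 212 higher and 242 lower, became 145 and 346 by the median ratio. In the knockout 0 factors were called in either direction, where 0.594% of all genes were called higher and 3.01% lower, 3.61% in either direction, with a median of 0.09 against 0.04. For the change of the genotype difference 1 factor was called lower (Batf3) and 0 higher, where 2.63% and 1.00% of all genes were called lower and higher, 3.63% in either direction. That split, 310 lower and 118 higher, became 214 and 151 by the median ratio and 229 and 141 at the same sum. The 10 genes were chosen with such results known, and 10 genes are too few to read a share from.

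**Figure D3:**
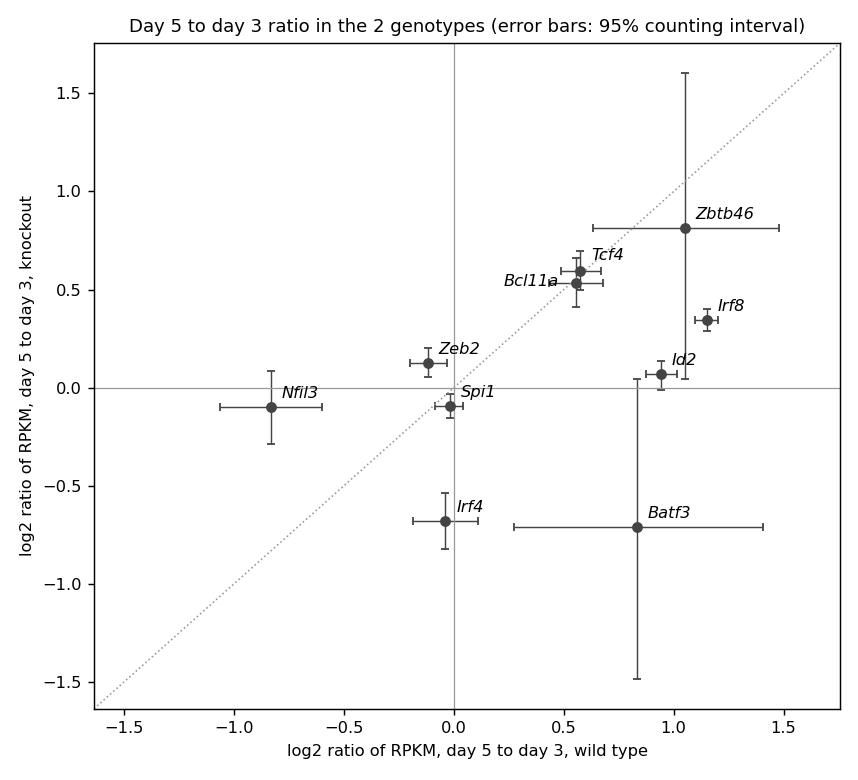
Log2 ratio of RPKM, day 5 to day 3, in wild type (horizontal) and in the knockout (vertical) for the 10 factors, with no pseudocount. Error bars are 95% counting intervals and the dotted line marks equal ratios. Tcf4 and Bcl11a lie on the line, while Irf8, Id2, Batf3 and Irf4 lie below it and Nfil3 and Zeb2 above it.

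Ratios between factors within a library do not depend on scaling between libraries. Irf8 stood at 11.1 times Irf4 in wild type (10.2 to 12.0) and at 6.86 times in the knockout (6.41 to 7.34) on day 3, and at 25.2 (23.4 to 27.2) and 13.9 times (12.8 to 15.1) on day 5. On each day the knockout was the lower of the pair, and in each genotype day 5 was the higher. Irf8 exceeded Spi1 per length in wild type on day 5 alone, at a ratio of 1.42 (1.37 to 1.47), against 0.632 in wild type on day 3 and 0.516 and 0.698 in the knockout. The ratio of Id2 to Tcf4, inhibitor to E protein, was 8.25 (7.72 to 8.82) in wild type and 10.5 (9.87 to 11.2) in the knockout on day 3. On day 5 the order was turned, at 10.6 (10.1 to 11.2) in wild type and 7.30 (6.89 to 7.74) in the knockout.

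The Zeb2 to Id2 ratio was 0.0717 (0.0681 to 0.0755) in wild type on day 5 and ran from 0.149 to 0.162 in the other 3 libraries, whose intervals touched from one to the next. Zeb2 to Nfil3, a pair added after the levels were seen, stood at 1.25 and 1.28 in wild type and the knockout on day 3, and on day 5 at 2.05 (1.80 to 2.35) in wild type, with an interval of 1.36 to 1.66 in the knockout. Batf3 to Zbtb46 was 6.48 (3.84 to 11.2) in the knockout on day 3 and between 1.87 and 2.26 elsewhere, on the few reads given above.

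**Figure D4:**
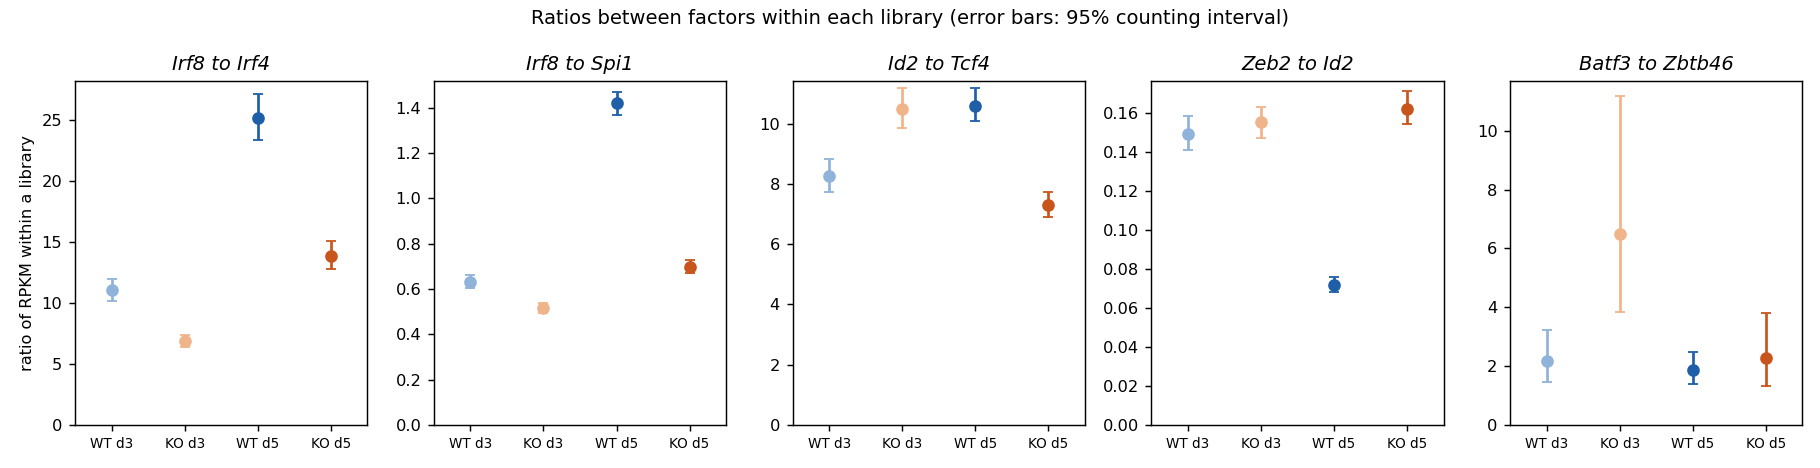
Ratio of RPKM between 2 factors within each library (vertical axes, from 0) for 5 pairs, wild type (WT) and knockout (KO) on day 3 (d3) and day 5 (d5). Points are single libraries and bars 95% counting intervals; wild type on day 5 is the high library for Irf8 to Irf4 and Irf8 to Spi1 and the low one for Zeb2 to Id2.

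The order of the levels per length had the same 3 genes on top in every library. In wild type on day 3 it ran Spi1, Id2, Irf8, Zeb2, Tcf4, Nfil3, Irf4, Bcl11a, Batf3 and Zbtb46. The counting intervals of Id2 and Irf8 (108 to 118 and 106 to 112 RPKM), of Tcf4 and Nfil3 (13.0 to 14.4 and 12.2 to 14.9 RPKM), and of Irf4 and Bcl11a (9.11 to 10.6 and 8.43 to 9.66 RPKM) overlapped, so those neighbours were not told apart. In the knockout on day 3 the intervals of Nfil3 and Irf4, and of Irf4 and Tcf4, overlapped. In wild type on day 5 Irf8 (237 to 246 RPKM) and Id2 (211 to 224 RPKM) had passed Spi1 (164 to 175 RPKM), and among neighbours the intervals of Nfil3 and Batf3 alone overlapped. In the knockout on day 5 Spi1 was again on top, and the intervals of Nfil3 and Bcl11a overlapped. Among all 26026 genes the 3 top factors stood at percentile 98 or above in each library and Zbtb46 between 50.1 and 65.3.

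The genes with the most similar pattern were sought among 8051 genes averaging 5 RPKM or more. The measure was the Euclidean distance between profiles of log2 RPKM + 1, centred on each gene's mean over the 4 libraries. With 4 points many genes can come close, so the number within 0.2 is given. For Zbtb46 the nearest 3 were the class II genes H2-Ab1 (0.131) and H2-Eb1 (0.165) and their activator Ciita (0.178), and 4 genes lay within 0.2. The added 1 RPKM compresses Zbtb46 (0.575 to 3.69 RPKM) but hardly H2-Ab1 (282 to 933 RPKM). This likeness therefore rests in part on the scale, and on few Zbtb46 reads. Ciita stood at 7.22 in wild type and 3.92 RPKM in knockout cells on day 3 and at 11.4 and 4.67 RPKM on day 5. For Irf8 they were Tbc1d9 (0.063), Amz1 (0.101) and Fcgrt (0.106), with 6 within 0.2, and for Batf3 Crip1 (0.127), P2rx1 (0.139) and Lrmda (0.172), with 5. For Nfil3 they were N4bp1 (0.059), Rasgrp1 (0.093) and Gbp7 (0.131), with 8, and for Id2 Anxa6 (0.065), Ubash3b (0.084) and Lmna (0.087), with 32. The patterns of Spi1, Zeb2 and Bcl11a were common, with 1302, 340 and 131 genes within 0.2. Tcf4 had 44, led by Lat2 (0.060), and Irf4 had 37, led by B3gnt2 (0.031). Between the factors themselves the closest were Tcf4 and Bcl11a, at 0.11, and the next Zeb2 and Spi1, at 0.35.

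Related factors were read from lists. Of the other IRF family genes 6 of 7 were measured and 0 were called between genotypes on either day, with medians of 0.02 (negative after either rescaling) and -0.09. Irf7, the interferon regulator kept high in pDC, stood at 135 and 147 RPKM on day 3 and 68.0 and 93.6 RPKM on day 5 in wild type and the knockout. Irf5 stood at 49.6, 59.8, 73.3 and 57.3 RPKM in the same order. Of the AP-1 and BATF partners 7 of 9 were measured and 0 called, and Batf and Batf2, which are close to Batf3, differed by 0.01 and 0.72 on day 3 and by 0.39 and 0.83 on day 5. The low level of Batf3 in the knockout on day 5 was therefore not shared by these relatives in sign.

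Among E proteins and Id inhibitors 4 of 5 were measured and 0 were called between genotypes. Id3, a relative of Id2, was called higher on day 5 in wild type by 1.08, as 1 of the 4, and went from 36.9 to 79.4 RPKM, while in the knockout it stood at 50.9 and 58.3 RPKM. The call was lost after rescaling by the median ratio, at 0.92. Tcf3 and Tcf12, the other E proteins, differed between genotypes by 0.19 and 0.27 on day 3 and by -0.07 and -0.19 on day 5. Among 7 ETS factors 1 was called lower in the knockout on day 5, Ets1, with a difference of -1.33 and 5.64 RPKM against 15.7 RPKM. Spib, the relative of Spi1 expressed in pDC and B cells, stood at 58.5 and 67.5 RPKM on day 3 and at 58.4 and 32.2 RPKM on day 5 in wild type and the knockout. Between the days in the knockout 2 ETS factors were called lower, Ets1 with -1.48 (17.5 to 5.64 RPKM) and Spib with -1.04, and 1 of the 2 calls was left after rescaling to the same sum.

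Of 20 other dendritic regulators, all measured, 1 was called lower in the knockout on day 5 and 0 higher, with medians of 0.04 on day 3 (negative after either rescaling) and -0.21 on day 5. The one was Mycl, a factor of cDC expansion, at 14.7 in wild type and 3.62 RPKM in knockout cells on day 5, a ratio of 0.247 (0.209 to 0.290), and at 3.77 and 1.57 RPKM on day 3. Mycl also rose between the days in wild type, by 1.71. Runx2, a factor of pDC, rose in both genotypes, by 1.23 in wild type and 1.03 in the knockout, and Ikzf3 fell in both, by 1.26 and 1.47. Relb, Ikzf1 and Stat3 differed by at most 0.20 between genotypes on either day. The PAR bZIP relatives of Nfil3, Dbp and Tef, differed by -0.25 and -0.39 on day 5, opposite in sign to Nfil3.

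Of the factors of other blood lineages 11 of 13 were measured. In the knockout 1 was lower on day 3, and 3 were lower and 1 higher on day 5. The higher one was Cebpb, a factor of inflammatory myeloid cells, at 49.5 RPKM in the knockout against 20.7 RPKM in wild type. Cebpe (granulocytes), Gata2 (stem cells, basophils and mast cells) and Gata1 (megakaryocytes and red cells) were the lower ones, with differences of -1.52, -1.16 and -1.11, and Tcf7 (T cells) was the one on day 3, with -1.31.

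**Figure D5:**
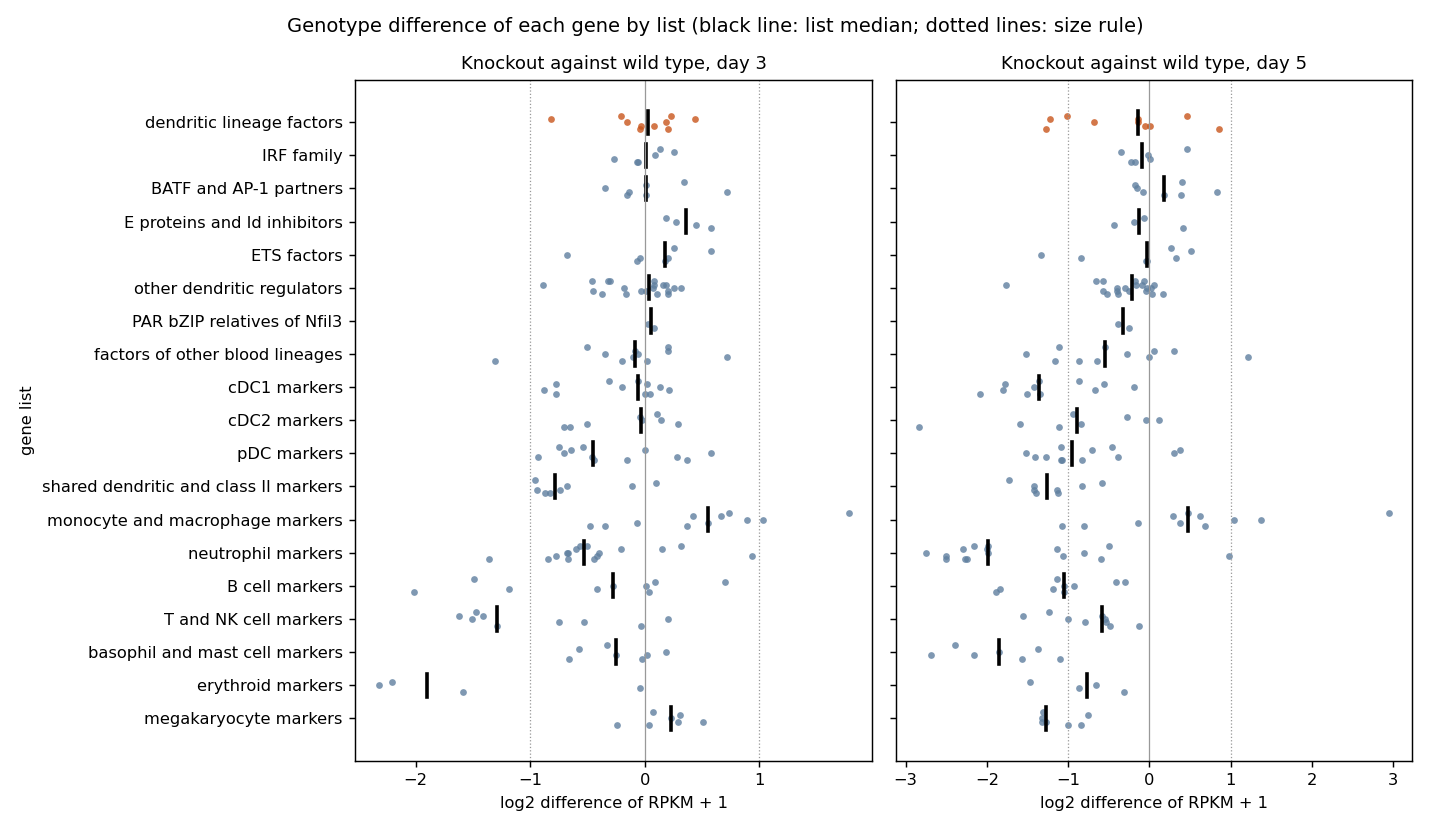
Log2 difference of RPKM + 1, knockout against wild type, for each measured gene (points) of each list (vertical axis) on day 3 and day 5, with list medians as black lines and the size rule as dotted lines. On day 5 the 10 factors run from -1.27 to 0.86, and the medians of the cDC1, neutrophil and basophil marker lists lie at -1.36, -1.99 and -1.85.

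Marker genes of the cells that these factors serve are given beside them. Of 11 measured cDC1 markers 7 were called lower in the knockout on day 5 and 0 on day 3, with medians of -1.36 and -0.06. After rescaling by the median ratio 1 of them was called lower on day 3. Xcr1 stood at 14.2 in wild type and 2.60 RPKM in knockout cells on day 5, and Clec9a at 24.8 and 6.39 RPKM. Of 12 pDC markers 6 were lower on day 5 and 0 on day 3, with medians of -0.95 and -0.45. Ccr9 stood at 26.8 in wild type and 8.68 RPKM in knockout cells on day 5. The other way went 2 of the 12, which were above 0 on day 5, the higher at 0.38. Of 8 measured cDC2 markers 3 were lower on day 5 and 0 on day 3, with medians of -0.89 and -0.03. On day 5 Cd209a stood at 27.2 in wild type and 2.98 RPKM in knockout cells, and 1 of the 8 was above 0. Of the 8 shared dendritic and class II markers 6 were lower on day 5, with a median of -1.26. On day 3 the median of these 8 was -0.79 and 7 of 8 were below 0, with 0 called lower as deposited, 4 after rescaling by the median ratio and 2 at the same sum. Each of these 4 medians on day 5 was below that of the factors, -0.14, and the difference between the lists was not tested.

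Several of the factors are also made by other cells of such a culture, so the lists of those cells matter for the values above. The summed level of 16 neutrophil markers was 34853 in wild type and 24891 RPKM in knockout cells on day 3, and 14202 and 3345 RPKM on day 5, with 12 of 16 called lower in the knockout on day 5. The largest part in wild type on day 3 was S100a9, at 13629.8 RPKM. On day 3, 3 of the 16 were above 0, and on day 5 1 was. That one was Prtn3, named after its values were seen, at 105 in wild type and 209 RPKM in knockout cells on day 5. It was called higher at the same sum (1.02). The sum of 11 monocyte and macrophage markers, cells that express Spi1, Irf8 and Zeb2, stood above wild type in knockout cells on both days, at 5739.8 and 8029.7 RPKM on day 3 and 5343 and 6909 RPKM on day 5, with 2 and 3 called higher and 0 and 1 lower. The lower one was Adgre1, at 47.5 in wild type and 22.0 RPKM in knockout cells on day 5, and 3 of the 11 were below 0 on each day. After either rescaling 1 was called higher on day 3. Most of the sum was Lyz2, a lysozyme gene also made by neutrophils and named after its values were seen, at 4721 and 6309 RPKM on day 3. B cell markers, from cells that express Spi1, Irf8, Tcf4 and Bcl11a, summed to 469.9, 395, 265 and 133 in wild type and knockout on day 3 and wild type and knockout on day 5. The sums in the same order were 49.3, 32.1, 22.4 and 11.3 RPKM for T and NK cell markers and 204, 164, 251 and 45.7 RPKM for basophil and mast cell markers. For megakaryocyte markers they were 327, 379, 797 and 365 RPKM and for erythroid markers 254, 53.7, 14.3 and 4.93 RPKM. The table lists no gene at 0, and the part of these cells in the values of the 10 factors was not tested.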

How the data were processed

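Polyadenylated RNA was sequenced in 4 libraries, 1 per genotype and day, so no spread between replicates could be estimated. Cells were lysed in trizol and a Kapa mRNA HyperPrep kit was used for the libraries, per the labels' protocols. HISAT2, SAMtools and the mm9 build were used, per the submitters' processing notes; how reads were counted, on which annotation and with which strand setting is not given in the sources used here. RPKM values, as the file headers name them, came from the authors as 1 table for the 4 libraries, and each column name carries its genotype and day. Genes at the lowest step in all libraries (7985) gave the library totals, and whole reads and a length were recovered for all 26026 genes (tolerance 0.003 reads, Python 3.11.15, scipy 1.17.1). Each gene stands at no less than 1 read, either as a floor or as 1 added read. A reference length gave whole reads for 7008 genes and for 0 of the 10 factors, so the factors' reads and intervals rest on the smallest length that did. That length was 8898 bases for Zeb2 against 4020 in the reference and 712 against 801 for Batf3. Reads lack molecular identifiers, so intervals (exact, Clopper-Pearson for ratios) may be too narrow. Depth was similar, so a factor's own reads, from 24 for Zbtb46 to 11057 for Irf8, set its precision.

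Differences were called without a test at 1 or more in absolute value, and the days were not taken as replicates of each other. The 10 factors, the 18 lists of related factors and markers, and the size rule were chosen with earlier results of these data known. Named genes are the factors, Nfkb1, genes of the factor lists, up to 4 called genes of each marker list, 6 label genes (Flt3, Itgax, Cd74, H2-Aa, Siglech and Clec9a), the 3 nearest patterns per factor and overlapping transcripts. Procedures were tested on simulated data. Alternatives were pseudocounts of 0.1 and 5 RPKM, other filters and 2 rescalings.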

Additional observations from a re-analysis of the deposited data

Results flagged for a closer look

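For 4 of the 10 factors a difference pointed one way in one pair of libraries and the opposite way in the other pair, and the difference between the pairs was not tested. Id2 was above wild type in the knockout at day 3 (0.19) and below it at day 5 (-0.68), a change of -0.87 in the genotype difference. The day 3 value kept its sign but fell to 0.02 after rescaling by the median ratio and 0.11 at the same sum of RPKM. Its size thus depends on the scaling, and no weight is placed on its direction. Irf4 was likewise above wild type in the knockout at day 3 (0.44) and below it at day 5 (-0.14), a change of -0.59. Batf3 was higher at day 5 than at day 3 in wild type (0.70) and lower in the knockout (-0.53), a change of -1.22. Zeb2 was slightly lower at day 5 in wild type (-0.11) and slightly higher in the knockout (0.12), a change of 0.23. The intervals of the underlying ratios excluded 1 for each pair except the Batf3 ratio of the days in the knockout.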

How the results depend on the processing

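Of 340 differences of the factors recomputed under 7 alternatives, 8 changed side of the size rule, as given beside Irf8, Batf3 and Zbtb46, and 7 changed sign, all of them for Spi1 or Bcl11a. A filter only leaves genes out and changes no value. The differences counted under filter settings could therefore not move (50 with no filter, 40 at 5 RPKM and 50 at 20 reads). Of 50 differences, 19 moved by more than counting error with the median ratio and 12 at the same sum, among them day 3 differences of Id2 (0.19 to 0.02), Zeb2 (0.23 to 0.07) and Tcf4 (-0.15 to -0.30) with the median ratio. Taking away the filter on low values could change no call of a factor, since all 10 had passed it. With a pseudocount of 0.1 RPKM, the rule called 228 genes higher and 221 lower by genotype at day 3 (1 factor lower) and 225 and 648 at day 5. Between the days 418 genes were then higher and 386 lower in wild type (2 factors higher) and 152 higher in the knockout, and 207 and 610 for the change of the genotype difference. With 5 RPKM these counts were 27 and 20 at day 3, 54 and 106 at day 5 (0 factors lower), 58 and 78 in wild type, 9 and 151 in the knockout, and 30 and 84 for the change (0 factors lower). With a mean of at least 5 RPKM, which leaves out Batf3 and Zbtb46, they were 70 and 40 at day 3, 90 and 228 at day 5 (1 factor lower), 106 and 154 in wild type, 28 higher in the knockout, and 39 and 170 for the change (0 factors lower). Fewer genes or a compressed scale follow from how these settings are built. Rescaling by the median ratio gave 70 genes higher at day 3 and 0 factors higher in wild type at day 5, and rescaling to the same sum 2 factors lower at day 5. A minimum mean of 20 reads, chosen after seeing the data, gave 75 and 63 at day 3, 30 higher between the days in the knockout and 35 higher for the change. No paired analysis was possible because each group holds 1 library and the labels carry no replicate numbers. Depth limits Batf3 and Zbtb46 most, with 25 to 79 and 24 to 153 reads.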
